A study of Mus musculus with 13 samples.

Results

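Transcript levels of 9 cell-surface homing receptors were described in common lymphoid progenitors, abbreviated CLP, which reside in bone marrow and can give rise to B cells, T cells and other lymphocytes. The genes were Cxcr4, Ccr7, Ccr9, Ccr2, Selplg, Itga4, Itgb1, Itgb7 and S1pr1. They were taken by mouse gene symbol, and each matched 1 of the 24072 RefSeq identifiers counted. All 9 were among the 12722 genes that passed the filter on low counts. RNA sequencing covered 3 fractions of CLP from the marrow of wild-type C57BL/6 mice, separated by flow cytometry (FACS) according to Ly6D and Gfra2 on their surface. The Ly6D+Gfra2+ fraction had 3 libraries, the Ly6D+Gfra2- fraction had 4 and the Ly6D-Gfra2- fraction had 6. No group carried a transgene or a treatment. The labels give neither the age or sex of the mice nor how many animals stand behind a library, so p-values here measure the spread between libraries, which may be technical. In sorted bulk cells, fewer cells that express a gene and less RNA per cell cannot be told apart.

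Cells leave the blood for an organ in steps. Selectins slow the cell by binding carbohydrate on ligands such as PSGL-1, chemokine receptors then signal through G proteins, and integrins that are activated by this signal hold the cell on the vessel wall. In bone marrow, Cxcl12 made by stromal cells retains progenitors through Cxcr4, and binding of alpha 4 beta 1 integrin to Vcam1 anchors them. In mice, Ccr7, Ccr9 and PSGL-1 take part in the seeding of the thymus by progenitors. S1pr1 senses sphingosine 1-phosphate, which is abundant in blood, and draws lymphocytes out of tissues into the circulation.

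Total counts ran between 6892728 and 23705975 per library, and 3 counts in a library, the floor used here, were worth 0.133 to 0.389 CPM. CPM is counts per 1000000 counts of the library size scaled by TMM, edgeR's correction for composition. Identifiers with at least 1 count numbered 10837 to 12369 in Ly6D+Gfra2+ libraries, 11636 to 13364 in Ly6D+Gfra2- libraries and 12904 to 13969 in Ly6D-Gfra2- libraries. Gfra2 followed the labels, at 286 CPM or more in Ly6D+Gfra2+ libraries and at 14.7 CPM or less in all others. Ly6d did so too with 1 exception. The library labelled Ly6D-Gfra2- replicate 3 held 213 CPM of it, against 0.622 to 8.29 CPM in the other 5 libraries of that label. The 10 CLP markers, such as Il7r, Flt3 and Rag1, were all detected in every library. Their summed levels were 8349 to 10126 CPM in Ly6D+Gfra2+, 7600.4 to 9290 CPM in Ly6D+Gfra2- and 6997 to 8140 CPM in Ly6D-Gfra2- libraries. Dntt had the highest mean of the 10, at 3690, 3746 and 3475 CPM in this order of groups. Single markers moved in both directions under the sum. Rag1 averaged 1308 ± 77.0, 189 ± 30.8 and 93.3 ± 66.7 CPM, and Cd34 63.0 ± 23.4, 252 ± 136 and 452 ± 154 CPM (SD). Library names start with P or T, and the labels do not explain these letters. All Ly6D+Gfra2+ libraries carry T, so values within prefix T stand beside the main ones.

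Between Ly6D+Gfra2+ and Ly6D-Gfra2- cells, Itga4 was the 1 receptor of 9 that passed the test, and it was higher in Ly6D+Gfra2+ cells, by 0.62 on the log2 scale. Cxcr4 and S1pr1 were also higher in every Ly6D+Gfra2+ library than in any Ly6D-Gfra2- library, and Itgb7 was lower, without passing the test. Called genes made up 1.39% of the 12722 tested (177, of which 118 were higher and 59 lower), by edgeR's quasi-likelihood test at a Benjamini-Hochberg adjusted p under 0.05. Groups that did not overlap were found for 4 of the 9 receptors, against 10.2% of all genes tested. An unadjusted p under 0.05 was reached by 5 of the 9, against 15.4% of all genes. Within prefix T, with 3 libraries against 3, groups did not overlap for 5 of the 9, against 18.8% of all genes. These were Cxcr4, Itga4, S1pr1, Itgb7 and Ccr9. DESeq2 called 3 of the receptors, beside 6.23% of the genes it tested. When replicate 3 of the libraries labelled Ly6D-Gfra2- was left out, the same 4 receptors showed no overlap (11.4% of all genes), and Itga4 lay at 0.63 with an adjusted p of 0.05001.

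Between Ly6D+Gfra2+ and Ly6D+Gfra2- cells, no receptor passed the same edgeR test, while 0.409% of all genes did (52, with 26 higher and 26 lower). An unadjusted p under 0.05 was reached by 4 of the 9 (Cxcr4, Itga4, Itgb7 and S1pr1), against 13.2% of all genes, and DESeq2 called 1 of them, S1pr1, beside 4.7% of the genes it tested (714). Groups did not overlap for Cxcr4, S1pr1 and Itgb7, 3 of the 9, against 9.71% of all genes. Within prefix T, with 3 libraries against 2, Itga4, Ccr7 and Ccr9 were apart as well, 6 of the 9 against 22.3% of all genes. The same Ly6D+Gfra2+ libraries enter both comparisons.

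Between Ly6D+Gfra2- and Ly6D-Gfra2- cells, no receptor and no other gene passed (0.0% of genes called by edgeR). The fit thus did not call Ly6d either, the marker that separates these 2 groups, so its lack of calls is weak evidence of no difference. Without the library labelled Ly6D-Gfra2- replicate 3, which held 213 CPM of Ly6d, edgeR called 16 genes (smallest adjusted p = 6.29e-05), none of them a receptor. In this comparison 599 genes (4.71%) had an unadjusted p under 0.05, none of them a receptor, and DESeq2 called 52 genes (0.342% of those it tested) and limma voom 1, again with no receptor. Fold changes of the 9 receptors lay between -1.52 (S1pr1) and 0.25 (Ccr7), each with an adjusted p of 0.9995. Groups overlapped for all 9, whereas 1.53% of all genes showed no overlap (2.88% without replicate 3 of Ly6D-Gfra2-). Within prefix T, with 2 libraries against 3, the groups were apart for 6 of the 9, with Cxcr4, Selplg, Itga4, Itgb1 and Itgb7 higher and Ccr2 lower in Ly6D+Gfra2- cells, against 25.2% of all genes. Their edgeR adjusted p there was 0.9999 each. Within prefix P, also with 2 libraries against 3, the groups overlapped for all 9, whereas 22% of all genes did not.

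**Figure D1:**
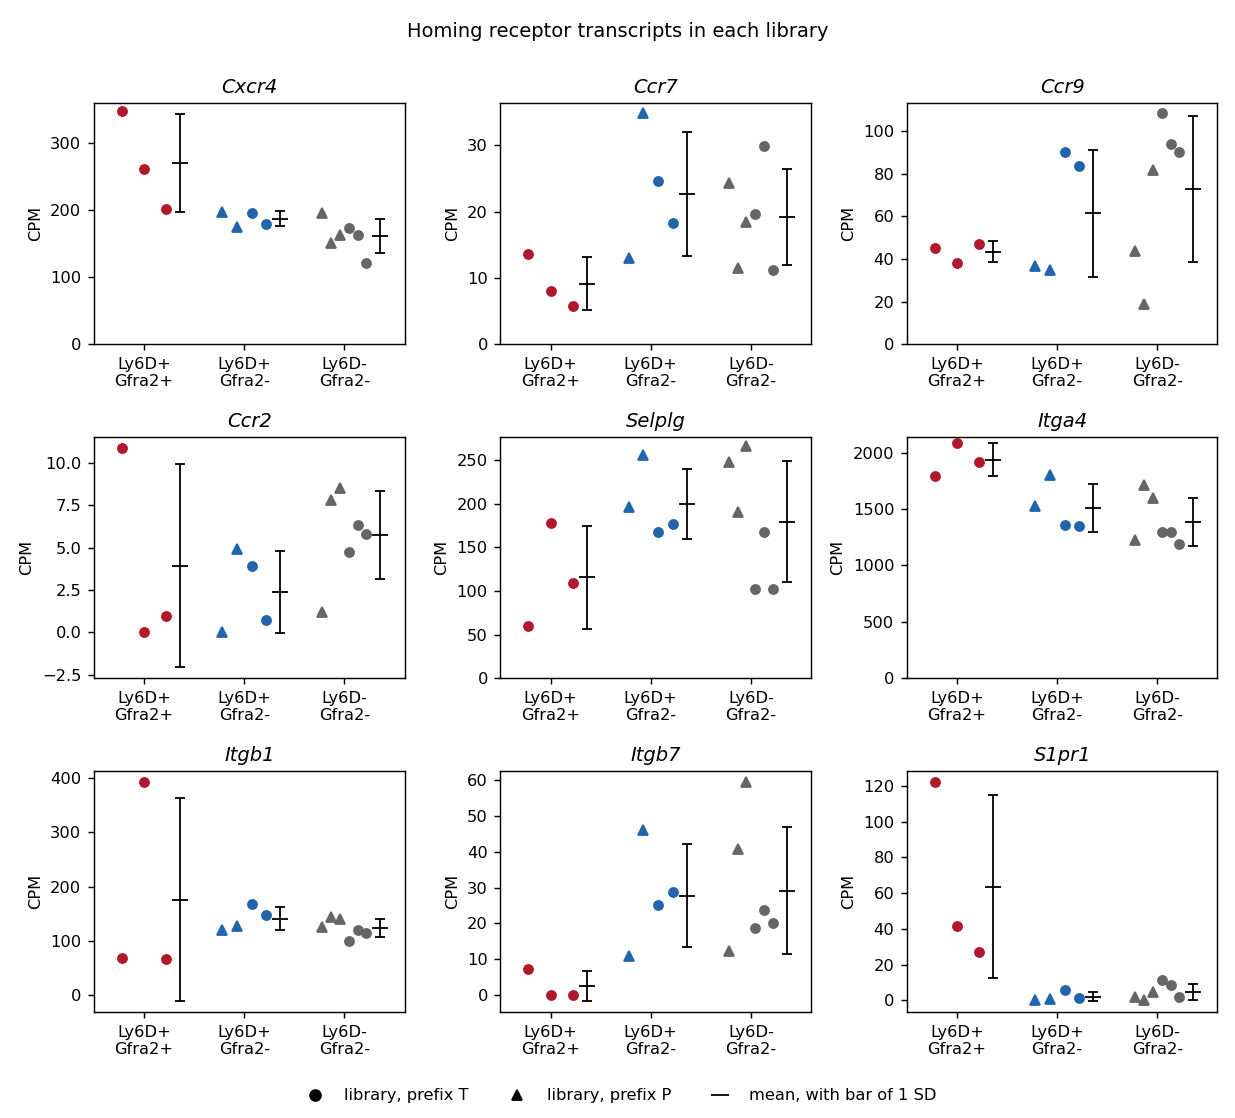
Level of each of the 9 receptors (CPM, a separate linear axis for each gene) in the 3 Ly6D+Gfra2+, 4 Ly6D+Gfra2- and 6 Ly6D-Gfra2- libraries, where each point is 1 library, the horizontal line is the group mean and the vertical line 1 SD. The 3 Ly6D+Gfra2+ points of S1pr1 lie at 26.9 to 122 CPM, above all other libraries, and 2 of the 3 Ly6D+Gfra2+ points of Itgb7 lie at 0.

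Cxcr4 (NM_009911), the receptor for Cxcl12, lies on chromosome 1 at 128588199 to 128592299 of mm10 (GRCm38.p6). Its levels were 348, 262 and 202 CPM in Ly6D+Gfra2+ replicates 4, 5 and 6. Ly6D+Gfra2- replicates 1, 2, 5 and 6 had 197, 175, 196 and 179.9 CPM, and Ly6D-Gfra2- libraries had a lowest value of 120.5, a median of 163 and a highest value of 196 CPM. Every Ly6D+Gfra2+ library was thus above every other library, by a narrow margin in replicate 6. Means were 270.4 ± 73.2 CPM in Ly6D+Gfra2+ (SD, n = 3), 187 ± 11.3 CPM in Ly6D+Gfra2- (SD, n = 4) and 161 ± 25.1 CPM in Ly6D-Gfra2- cells (SD, n = 6). The log2 fold change was 0.79 (SE 0.25, edgeR adjusted p = 0.129) for Ly6D+Gfra2+ against Ly6D-Gfra2- and 0.57 (SE 0.26, adjusted p = 0.361) against Ly6D+Gfra2-. DESeq2 called the first of these, at an adjusted p of 0.0234. Within prefix T the values were 0.82 (adjusted p = 0.277) and 0.52 (adjusted p = 0.626), with the groups still apart.

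Promoter windows are printed for Cxcr4, Itga4 and Itgb7, receptors for which every Ly6D+Gfra2+ library lay on 1 side of every Ly6D-Gfra2- library. The Cxcr4 window holds 250 bases before and 50 after an annotated start, in RefSeq's GRCm38.p6, at chr1:128592250-128592549 on the minus strand. Capitals mark matches to any of 4 short motifs searched on both strands: CACCC, the core bound by Krüppel-like factors, GTAAACA, the forkhead core of Foxo factors, CAGCTG, an E-box of E proteins, and the Ebf1 core. Of 32851 promoter windows of this length, 57.5% held CACCC, 3.65% held GTAAACA, 16.3% held CAGCTG and 0.904% held the Ebf1 core.
Cxcr4: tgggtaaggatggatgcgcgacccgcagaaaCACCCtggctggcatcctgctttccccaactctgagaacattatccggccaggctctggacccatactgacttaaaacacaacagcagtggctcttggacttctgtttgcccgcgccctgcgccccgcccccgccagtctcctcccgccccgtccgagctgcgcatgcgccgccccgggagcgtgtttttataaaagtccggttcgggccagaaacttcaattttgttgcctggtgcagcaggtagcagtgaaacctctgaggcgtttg
It held 1 CACCC and none of the other 3 motifs.

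Ccr7 (NM_007719, chromosome 11, 99144199 to 99155077), the receptor for Ccl19 and Ccl21, had 13.6, 8.01 and 5.84 CPM in the 3 Ly6D+Gfra2+ libraries. Ly6D+Gfra2- libraries had 12.97, 34.8, 24.6 and 18.3 CPM, and Ly6D-Gfra2- libraries ran between 11.3 and 29.9 CPM with a median of 19.0. Ly6D+Gfra2+ replicate 4 overlapped the low end of both other groups, and the other 2 Ly6D+Gfra2+ libraries lay below every library of those groups. Means were 9.16 ± 4.01 CPM in Ly6D+Gfra2+ cells (SD, n = 3), 22.7 ± 9.41 CPM in Ly6D+Gfra2- cells (SD, n = 4) and 19.2 ± 7.25 CPM in Ly6D-Gfra2- cells (SD, n = 6). The fold change was -1.33 (SE 0.74, adjusted p = 0.457) against Ly6D+Gfra2- and -1.08 (SE 0.69, adjusted p = 0.485) against Ly6D-Gfra2- cells. Within prefix T every Ly6D+Gfra2+ library lay below both Ly6D+Gfra2- libraries and the overlap with Ly6D-Gfra2- remained, with edgeR values of -1.23 (adjusted p = 0.680) and -1.15 (adjusted p = 0.615).

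Ccr9 (NM_001166625, chromosome 9, 123767211 to 123783457), the receptor for thymic Ccl25, had 45.1, 38.0 and 47.3 CPM in Ly6D+Gfra2+ libraries. It had 36.8, 34.8, 90.3 and 83.7 CPM in Ly6D+Gfra2- replicates 1, 2, 5 and 6. In Ly6D-Gfra2- libraries the lowest level was 19.0, the median 86.0 and the highest 109 CPM. Levels in these last 2 groups differed by the prefix of the library name. Within prefix P, Ly6D+Gfra2- averaged 35.8 ± 1.45 CPM (n = 2) and Ly6D-Gfra2- averaged 48.2 ± 31.6 CPM (SD, n = 3). The Ly6D-Gfra2- mean rests on the library labelled Ly6D-Gfra2- replicate 3, at 81.8 CPM, which has the Ly6d level against its label. Without it the mean was 31.4 ± 17.5 CPM (n = 2), below that of Ly6D+Gfra2-. Within prefix T Ly6D+Gfra2- averaged 87 ± 4.73 CPM (n = 2) and Ly6D-Gfra2- averaged 97.6 ± 9.73 CPM (SD, n = 3). Ly6D+Gfra2+ cells, all of prefix T, averaged 43.5 ± 4.84 CPM (SD, n = 3), and within prefix T they lay below every library of both other groups. The fold change was -1.22 (SE 0.44, adjusted p = 0.202) against Ly6D-Gfra2- and -0.92 (SE 0.46, adjusted p = 0.401) against Ly6D+Gfra2- cells in the edgeR fit with a prefix term. DESeq2 called the first, at an adjusted p of 0.0459, and within prefix T the edgeR values were -1.17 (adjusted p = 0.226) and -1.01 (adjusted p = 0.465).

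Plasmacytoid dendritic cells also express Ccr9. The summed level of 9 of their markers, Siglech, Irf8, Tcf4 and Bst2 among them, was 776 to 1236 CPM in Ly6D+Gfra2+, 3598 to 4284 CPM in Ly6D+Gfra2- and 1534 to 4267 CPM in Ly6D-Gfra2- libraries. The upper end is the library labelled Ly6D-Gfra2- replicate 3, and the other 5 of that label ran from 1534 to 2593 CPM, below all Ly6D+Gfra2- libraries. Spib and Pacsin1 were at 0 in Ly6D+Gfra2+ replicates 4 and 5, and Klk1 was at 0 in 11 of the 13 libraries. The part of these cells in the Ccr9 values was not tested. The gene body of Ccr9 overlaps Lztfl1, Slc6a20a, Gm10052 and AC165425.1 on the opposite strand. On the same strand it overlaps the lincRNA Gm17200 and the processed pseudogene Gm17020. The strand setting of the counting is not stated, and the part of these overlaps in the Ccr9 values was not tested. Lztfl1 itself averaged 34.0 ± 6.09 CPM in Ly6D+Gfra2+ cells (SD, n = 3), 34.3 ± 6.98 CPM in Ly6D+Gfra2- cells (SD, n = 4) and 34.0 ± 14.2 CPM in Ly6D-Gfra2- cells (SD, n = 6).

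Ccr2 (NM_009915, chromosome 9, 124101918 to 124109140), the receptor for Ccl2, was low in every library. The 3 Ly6D+Gfra2+ libraries had 10.9, 0 and 0.974 CPM. The 4 Ly6D+Gfra2- libraries had 0, 4.92, 3.92 and 0.71 CPM, and levels ran from 1.19 to 8.50 CPM with a median of 6.09 in Ly6D-Gfra2- libraries. The groups overlapped in all 3 comparisons over the 13 libraries. The fold change against Ly6D-Gfra2- cells was -0.51 (SE 1.65, adjusted p = 0.93) in Ly6D+Gfra2+ and -1.26 (SE 1.42, adjusted p = 0.9995) in Ly6D+Gfra2- cells. Within prefix T these values were -0.51 (adjusted p = 0.949) and -1.28 (adjusted p = 0.9999), and there both Ly6D+Gfra2- libraries, at 3.92 and 0.71 CPM, lay below the Ly6D-Gfra2- libraries, at 4.76 to 6.35 CPM. Monocytes carry Ccr2, and the summed level of 12 granulocyte and monocyte markers was 205 to 492.8 CPM in Ly6D+Gfra2+, 543 to 707 CPM in Ly6D+Gfra2- and 769 to 1423 CPM in Ly6D-Gfra2- libraries. Mpo led this sum, with means of 239, 409 and 791 CPM in this order of groups. Not every marker followed the sum, as Lyz2 averaged 89.6 ± 23.7, 52.4 ± 18.0 and 126 ± 53.7 CPM (SD). Ms4a3 was at 0 in all Ly6D+Gfra2+ and Ly6D+Gfra2- libraries, and also in Ly6D-Gfra2- replicates 1, 2 and 4. The part of these cells in the Ccr2 values was not tested.

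Selplg (NM_009151, chromosome 5, 113817798 to 113832528) encodes the core protein of PSGL-1, the main ligand of P-selectin. It had 60.3, 177.9 and 109 CPM in Ly6D+Gfra2+ libraries, 197, 256, 168 and 177 CPM in Ly6D+Gfra2- libraries, and 102 to 266 CPM with a median of 179.5 in Ly6D-Gfra2- libraries. One Ly6D+Gfra2+ library, replicate 5, reached the level of the others, and the remaining 2 lay in or below the low end of the Ly6D-Gfra2- range. Means were 116 ± 59.1 CPM in Ly6D+Gfra2+ cells (SD, n = 3), 199.6 ± 39.7 CPM in Ly6D+Gfra2- cells (SD, n = 4) and 179.5 ± 69.5 CPM in Ly6D-Gfra2- cells (SD, n = 6). The fold change was -0.43 (SE 0.35, adjusted p = 0.644) against Ly6D+Gfra2- and -0.21 (SE 0.34, adjusted p = 0.834) against Ly6D-Gfra2- cells. Levels differed by prefix. Within prefix T, which holds all Ly6D+Gfra2+ libraries, means were 173 ± 6.53 CPM in Ly6D+Gfra2- (SD, n = 2) and 124 ± 37.8 CPM in Ly6D-Gfra2- cells (SD, n = 3). Within prefix P they were 227 ± 42.2 CPM in Ly6D+Gfra2- (SD, n = 2) and 235 ± 38.9 CPM in Ly6D-Gfra2- cells (SD, n = 3). The gap between Ly6D+Gfra2+ and Ly6D-Gfra2- means was thus smaller within prefix T, where the edgeR value was -0.11 (adjusted p = 0.955), and against Ly6D+Gfra2- it was -0.59 (adjusted p = 0.701).

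Itga4 (NM_010576, chromosome 2, 79255426 to 79333114) encodes the alpha 4 subunit, which pairs with beta 1 to bind Vcam1 and with beta 7 to bind Madcam1. It had 1797, 2089 and 1920.3 CPM in Ly6D+Gfra2+ libraries. Ly6D+Gfra2- replicates 1, 2, 5 and 6 had 1531, 1801, 1355 and 1351 CPM, and the 6 Ly6D-Gfra2- libraries had a lowest value of 1189, a median of 1299 and a highest of 1711 CPM. All Ly6D+Gfra2+ libraries were above all Ly6D-Gfra2- libraries, whereas the lowest of them fell just short of Ly6D+Gfra2- replicate 2. Means were 1936 ± 147 CPM in Ly6D+Gfra2+ (SD, n = 3), 1509.6 ± 212 CPM in Ly6D+Gfra2- (SD, n = 4) and 1387 ± 214 CPM in Ly6D-Gfra2- cells (SD, n = 6). Itga4 rose in Ly6D+Gfra2+ against Ly6D-Gfra2- cells by a log2 fold change of 0.62 (SE 0.14, edgeR adjusted p = 0.0386). The change against Ly6D+Gfra2- cells was 0.50 (SE 0.15, adjusted p = 0.169). In the libraries of prefix T alone, where all Ly6D+Gfra2+ libraries lay above both Ly6D+Gfra2- libraries, this change was 0.51 (adjusted p = 0.348).

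The direction of the Itga4 difference held in all 24 alternatives, with values of 0.36 to 0.67 and adjusted p of 0.00396 to 0.257, of which 10 passed. The call ended when any 1 of 8 libraries was left out: replicate 5 of Ly6D+Gfra2+, replicates 2, 5 or 6 of Ly6D+Gfra2-, or replicates 3, 4, 5 or 6 of Ly6D-Gfra2- (0.57 to 0.64, adjusted p of 0.05001 to 0.1097). Within prefix T the value was 0.61 (adjusted p = 0.108). The alternative scaled by library size alone gave 0.36, and in it the median of all genes moved to -0.25. Itga4 overlaps Cerkl on the opposite strand, and Cerkl averaged 76.0 ± 29.8 CPM in Ly6D+Gfra2+ (SD, n = 3), 69.2 ± 32.5 CPM in Ly6D+Gfra2- (SD, n = 4) and 63.7 ± 19.9 CPM in Ly6D-Gfra2- cells (SD, n = 6), with adjusted p of 0.756 to 0.9995.

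Itgb1 (NM_010578, chromosome 8, 128685654 to 128733579), the beta 1 subunit, had 68.8, 392 and 67.4 CPM in Ly6D+Gfra2+ libraries. Ly6D+Gfra2- libraries had 121, 127, 168 and 149 CPM, and Ly6D-Gfra2- libraries 100.8 to 145 CPM with a median of 123. Ly6D+Gfra2+ replicate 5 was the highest of all 13 libraries and the other 2 of its group were the lowest. Replicate 5 is also the library with the fewest identifiers detected. Means were 176 ± 187 CPM in Ly6D+Gfra2+ (SD, n = 3), 141 ± 21.4 CPM in Ly6D+Gfra2- (SD, n = 4) and 125 ± 16.5 CPM in Ly6D-Gfra2- cells (SD, n = 6). The fold change was 0.33 (SE 0.50, adjusted p = 0.829) against Ly6D+Gfra2- and 0.52 (SE 0.48, adjusted p = 0.678) against Ly6D-Gfra2- cells. Within prefix T they were 0.14 (adjusted p = 0.970) and 0.64 (adjusted p = 0.723), with the groups overlapping. Without replicate 5, in the fit of all other libraries, these turned to -1.04 (adjusted p = 0.158) and -0.85 (adjusted p = 0.198).

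Itgb7 (NM_013566, chromosome 15, 102215994 to 102233405), the beta 7 subunit of gut-homing integrin, had 7.32, 0 and 0 CPM in Ly6D+Gfra2+ replicates 4, 5 and 6, from 64, 0 and 0 counts. Ly6D+Gfra2- libraries had 11.0, 46.2, 25.2 and 28.7 CPM, and Ly6D-Gfra2- libraries 12.3 to 59.5 CPM with a median of 22.03. All 3 Ly6D+Gfra2+ libraries lay below all 10 others. Means were 2.44 ± 4.23 CPM in Ly6D+Gfra2+ (SD, n = 3), 27.8 ± 14.5 CPM in Ly6D+Gfra2- (SD, n = 4) and 29.2 ± 17.6 CPM in Ly6D-Gfra2- cells (SD, n = 6). The fitted log2 fold change was -3.25 against both, with an SE of 1.33 and an adjusted p of 0.306 against Ly6D+Gfra2-, and an SE of 1.32 and an adjusted p of 0.247 against Ly6D-Gfra2- cells. Within prefix T it was -3.46 (adjusted p = 0.547) and -3.09 (adjusted p = 0.466), with the groups still apart.

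Ly6D+Gfra2+ replicate 4 decided the Itgb7 call. Without it, Itgb7 fell in the remaining Ly6D+Gfra2+ libraries, with an edgeR adjusted p of 0.0109 against Ly6D+Gfra2- and 0.00431 against Ly6D-Gfra2- cells. Since both remaining libraries had 0 counts, only a bound can be given. Set against 3 counts over the pair (0.170 CPM), Itgb7 in replicates 5 and 6 was at least 172-fold lower than the pooled 29.3 CPM in Ly6D+Gfra2- cells. Below the pooled 35.2 CPM in Ly6D-Gfra2- cells it was at least 207-fold lower. These bounds cover counting error only.

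The window at Itga4 is chr2:79255176-79255475 on the plus strand. The window at Itgb7 is chr15:102231886-102232185 on the minus strand, at an annotated start that lies inside the gene's full span. Capitals are as above.
Itga4: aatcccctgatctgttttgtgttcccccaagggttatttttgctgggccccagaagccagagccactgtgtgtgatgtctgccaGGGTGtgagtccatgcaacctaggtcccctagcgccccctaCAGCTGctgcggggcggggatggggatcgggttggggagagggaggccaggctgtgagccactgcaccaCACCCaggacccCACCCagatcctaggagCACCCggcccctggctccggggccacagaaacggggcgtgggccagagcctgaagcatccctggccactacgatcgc
Itgb7: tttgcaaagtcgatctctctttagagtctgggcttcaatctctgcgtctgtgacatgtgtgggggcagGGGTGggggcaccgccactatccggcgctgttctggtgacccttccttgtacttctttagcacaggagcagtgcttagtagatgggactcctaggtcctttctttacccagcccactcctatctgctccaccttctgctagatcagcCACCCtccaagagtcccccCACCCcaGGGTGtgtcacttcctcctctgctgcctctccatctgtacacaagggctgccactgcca
Itga4 held 4 matches to CACCC on either strand and 1 CAGCTG, and Itgb7 held 4 matches to CACCC. No matches overlapped, and neither window held GTAAACA or the Ebf1 core. Among the other receptors with a window in the table, Ccr9 had 1 match to CACCC, Itgb1 had 2 and Ccr2 had none.

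To set the subunits against each other, levels were divided by the length of the GENCODE M21 transcript matched to the counted RefSeq identifier (CPM per kb). Itga4 was at 184, 214 and 197 CPM per kb in Ly6D+Gfra2+, against 138 to 184 in Ly6D+Gfra2- and 122 to 175 in Ly6D-Gfra2- libraries. Both beta subunits together came to less than Itga4 in all 13 libraries. The share of Itgb7 in the sum of Itgb1 and Itgb7 was 13.2%, 0% and 0% in Ly6D+Gfra2+ libraries. It was 11.4%, 34.0%, 17.6% and 21.5% in Ly6D+Gfra2- libraries and 12.2% to 37.5% in Ly6D-Gfra2- libraries. The share in Ly6D+Gfra2+ replicate 4 thus lay within the range of the other groups, since Itgb1 was low there too.

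**Figure D2:**
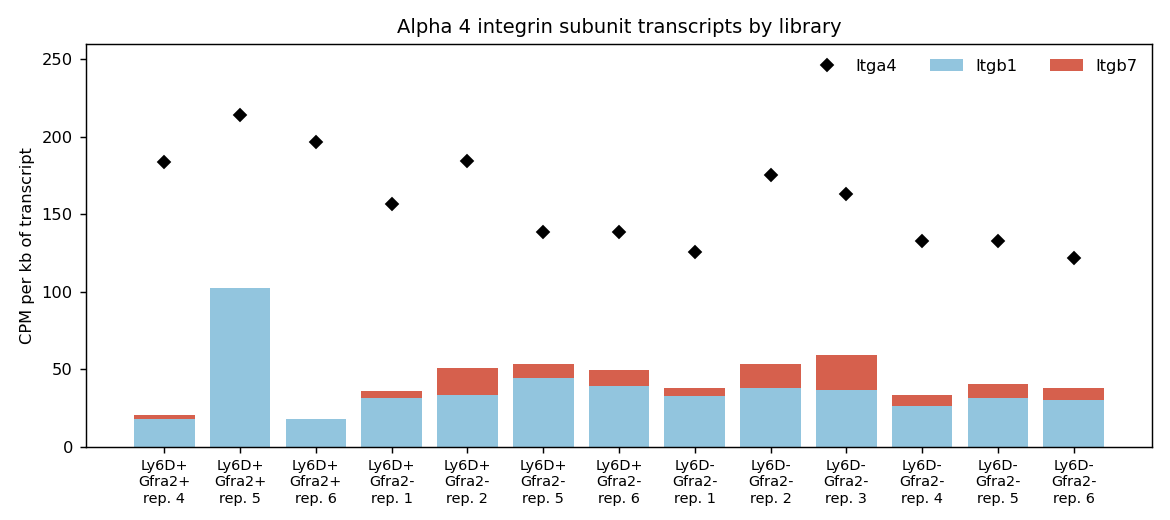
Levels of the alpha 4 subunit Itga4 (diamonds) and of the beta subunits Itgb1 and Itgb7 (stacked bars) in each of the 13 libraries, in CPM per kb of transcript. Itga4 lies above the sum of the beta subunits in every library, and Ly6D+Gfra2+ replicate 5 has the tallest Itgb1 bar, at 103 CPM per kb, and no Itgb7.

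S1pr1 (NM_007901, chromosome 3, 115710433 to 115715055), the egress receptor, had 122, 41.8 and 26.9 CPM in Ly6D+Gfra2+ replicates 4, 5 and 6, from 1067, 350 and 249 counts. Ly6D+Gfra2- libraries had 0.259, 0.71, 5.97 and 1.32 CPM, from 4, 14, 64 and 13 counts. Ly6D-Gfra2- libraries had a lowest value of 0, a median of 3.23 and a highest value of 11.5 CPM. Every Ly6D+Gfra2+ library was above every other library, and the levels within that group themselves spread widely. Means were 63.6 ± 51.2 CPM in Ly6D+Gfra2+ (SD, n = 3), 2.06 ± 2.64 CPM in Ly6D+Gfra2- (SD, n = 4) and 4.75 ± 4.51 CPM in Ly6D-Gfra2- cells (SD, n = 6).

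The fitted log2 fold change of S1pr1 was 4.41 (SE 1.27, edgeR adjusted p = 0.146) against Ly6D+Gfra2- and 2.89 (SE 1.18, adjusted p = 0.249) against Ly6D-Gfra2- cells. The first was called by DESeq2 (4.44, adjusted p = 0.00577) and by edgeR without the filter on low counts (4.41, adjusted p = 0.0445). Over the 24 alternatives it ran from 3.52 to 5.41, with adjusted p of 0.00577 to 0.793, and the second from 1.99 to 3.74, with adjusted p of 0.081 to 0.456. Within prefix T the values were 4.12 (adjusted p = 0.331) and 3.11 (adjusted p = 0.226). Mature lymphocytes carry S1pr1. Of 6 mature B cell markers measured, Ms4a1 was at 0 in all 13 libraries, and the sum of the 6 was 259.7 to 526.5 CPM in Ly6D+Gfra2+, 138 to 363 CPM in Ly6D+Gfra2- and 90.2 to 251 CPM in Ly6D-Gfra2- libraries. The sum of 9 T cell markers was 61.3 to 88.2 CPM in Ly6D+Gfra2+, 62.1 to 159.5 CPM in Ly6D+Gfra2- and 76.6 to 110.3 CPM in Ly6D-Gfra2- libraries, and Cd3g was at 0 in all but 1 library. The part of the B cell markers in the S1pr1 values was not tested.

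**Figure D3:**
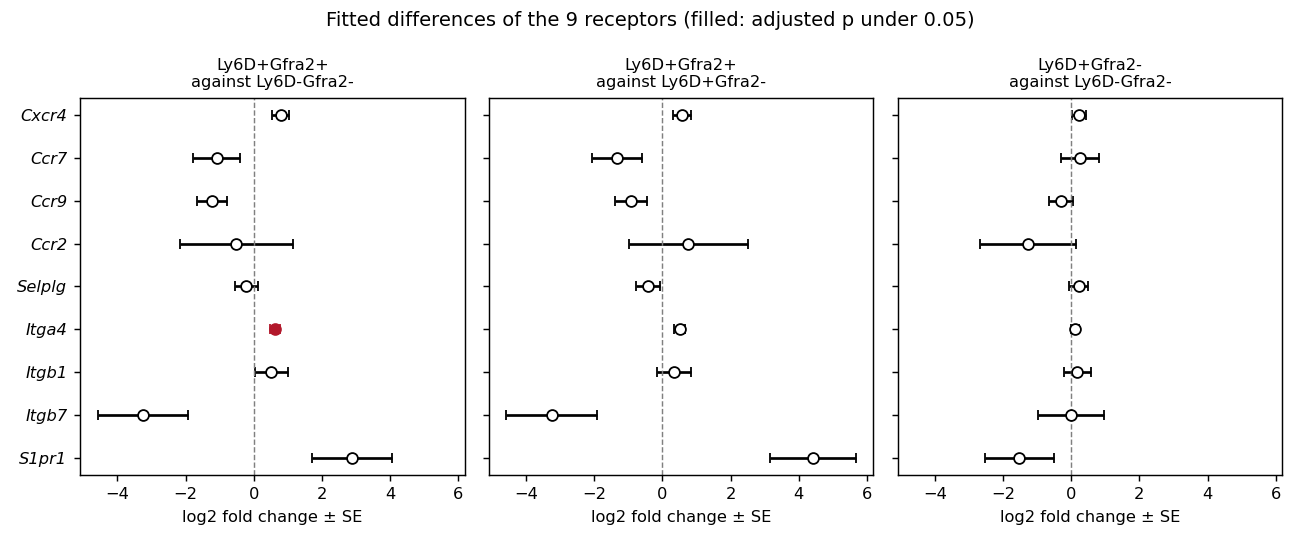
Log2 fold change of each of the 9 receptors in the 3 comparisons, from the edgeR fit on all 13 libraries with bars of 1 SE. A filled symbol marks an adjusted p under 0.05, which was reached once, by Itga4 in Ly6D+Gfra2+ against Ly6D-Gfra2- cells (0.62).

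By mean level per kb, Itga4 ranked first in all 3 groups, at 198 CPM per kb in Ly6D+Gfra2+, 155 in Ly6D+Gfra2- and 142 in Ly6D-Gfra2- cells. In Ly6D+Gfra2+ cells it was followed by Cxcr4 at 149.8, Selplg at 62.3, Itgb1 at 46.1, S1pr1 at 20.9, Ccr9 at 15.0, Ccr7 at 4.63, Ccr2 at 1.32 and Itgb7 at 0.91. Library ranges of neighbours in that order overlapped except between Cxcr4 and Selplg and between Ccr9 and Ccr7. In Ly6D+Gfra2- cells the order after Itga4 was Selplg at 108, Cxcr4 at 104, Itgb1 at 37.0, Ccr9 at 21.3, Ccr7 at 11.5, Itgb7 at 10.3, Ccr2 at 0.796 and S1pr1 at 0.678. There the overlapping neighbours were Selplg with Cxcr4, Ccr9 with Ccr7, Ccr7 with Itgb7 and Ccr2 with S1pr1. In Ly6D-Gfra2- cells it was Selplg at 96.8, Cxcr4 at 89.2, Itgb1 at 32.7, Ccr9 at 25.2, Itgb7 at 10.9, Ccr7 at 9.68, Ccr2 at 1.92 and S1pr1 at 1.56, and neighbours overlapped except Cxcr4 with Itgb1 and Ccr7 with Ccr2. S1pr1 thus ranked 5 of 9 in Ly6D+Gfra2+ cells and last in the other groups.

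Genes whose levels ran closest to a receptor over the 13 libraries were found among 10421 genes that averaged 5 CPM or more, by the root mean square difference of centred log2(CPM + 1) values. For Cxcr4 these were Nup85 (0.18) and Brd2 (0.19), and for Itga4 Cnot1 and Chd8 (both 0.15). Ccr7 was closest to Arap2 (0.40) and Mad2l1 (0.43), Ccr9 to Fam133b (0.44) and Btg3 (0.47), and Selplg to Erp29 (0.29) and Laptm5 (0.31). Itgb1 was closest to Zmiz2 and Ttf1 (both 0.29). Itgb7 was closest to Phf19 and Ctif (both 0.76), and S1pr1 to Rgs8 (0.82) and Akap12 (0.86). The measure is not scaled to a gene's own spread, which was wide for Itgb7 and S1pr1. The distances therefore do not compare likeness between receptors. Ccr2 was below the minimum level.

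Other genes of the homing pathways were counted from lists. In Ly6D+Gfra2+ against Ly6D-Gfra2- cells the count of each list stands beside the 1.39% of all tested genes that edgeR called. There 1 of 10 genes of selectin binding and selectin ligand synthesis rose. St3gal6, a sialyltransferase that builds selectin ligands, averaged 133 ± 18.3 CPM in Ly6D+Gfra2+ (SD, n = 3) and 21.7 ± 12.7 CPM in Ly6D-Gfra2- cells (SD, n = 6), a change of 2.83 (SE 0.61, adjusted p = 0.0305). Cd44, a receptor for hyaluronan, had -0.76 (adjusted p = 0.116) and did not pass. The median of the list was 0.83, beside 0.01 over all genes.

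Of 15 other integrin genes tested, Itgam fell in the same comparison and none rose. Itgam, the alpha subunit of Mac-1, averaged 13.2 ± 6.43 CPM in Ly6D+Gfra2+ (SD, n = 3) and 93.2 ± 22.7 CPM in Ly6D-Gfra2- cells (SD, n = 6), a change of -2.87 (SE 0.54, adjusted p = 0.0157). Itgax had -2.89 (adjusted p = 0.133) and did not pass, and Itga1, at 0 in all 3 Ly6D+Gfra2+ libraries and at 0 to 13.4 CPM in Ly6D-Gfra2- libraries, did not pass either (adjusted p = 0.180). The median of this list was -2.22, also with its 3 genes at 0 in Ly6D+Gfra2+ cells set at a bound of 3 counts. Mac-1 is carried by granulocytes and monocytes. Their summed markers, given with Ccr2 and led by Mpo, were also lowest in Ly6D+Gfra2+ libraries, though not every single marker was. The part of these cells in the Itgam value was not tested. Of 12 genes of integrin activation, Sipa1, a GTPase-activating protein for Rap1, rose, at 412 ± 165 CPM in Ly6D+Gfra2+ (SD, n = 3) and 145 ± 27.4 CPM in Ly6D-Gfra2- cells (SD, n = 6), a change of 1.52 (SE 0.30, adjusted p = 0.0193). Fermt3, which encodes kindlin-3, had 1.09 (adjusted p = 0.103), and Pxn, which encodes paxillin, had 0.86 (adjusted p = 0.171). The median was 0.35. As a GTPase-activating protein switches Rap1 off, the list mixes genes of opposite roles, and its median gives no direction of activation.

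Of 12 genes of the sphingosine 1-phosphate pathway, 10 were tested and 1, Spns2, rose. Spns2, an exporter of sphingosine 1-phosphate, averaged 248 ± 56.6 CPM in Ly6D+Gfra2+ (SD, n = 3) and 92.7 ± 28.4 CPM in Ly6D-Gfra2- cells (SD, n = 6), a change of 1.25 (SE 0.29, adjusted p = 0.0417). Cd69, which binds S1pr1 and removes it from the cell surface, had 192.6 ± 27.4 CPM in Ly6D+Gfra2+ (SD, n = 3) and 69.8 ± 32.0 CPM in Ly6D-Gfra2- cells (SD, n = 6) and a change of 1.21 (SE 0.34, adjusted p = 0.0977), which did not pass. The median was 0.60. Of 22 genes of chemokine receptor signalling, Pik3r5, a regulatory subunit of PI3-kinase gamma, rose. It had 229, 646 and 59.8 CPM in Ly6D+Gfra2+ and 20.3 to 87.3 CPM in Ly6D-Gfra2- libraries, so the groups overlapped, and its change was 3.31 (SE 0.68, adjusted p = 0.0254). Without Ly6D+Gfra2+ replicate 5, the library at 646 CPM, the change was 2.20 (adjusted p = 0.119), and limma voom gave 2.11 (adjusted p = 0.172). The median was 0.15.

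The 5 calls among these lists kept their direction in all 24 alternatives, of which 21 passed for Itgam, 17 for Sipa1, 16 for Pik3r5, 15 for St3gal6 and 8 for Spns2. Within prefix T, which holds all Ly6D+Gfra2+ libraries, none of the 5 passed, with changes of -2.74 for Itgam (adjusted p = 0.0664), 1.46 for Sipa1 (adjusted p = 0.108), 3.55 for Pik3r5 (adjusted p = 0.0560), 2.69 for St3gal6 (adjusted p = 0.137) and 1.16 for Spns2 (adjusted p = 0.166). In a fit of the 2 groups alone Itgam passed (adjusted p = 0.0258) and the other 4 did not (adjusted p of 0.0645 to 0.1265). Leaving out Ly6D-Gfra2- replicate 4 ended each of the 5 calls. Leaving out Ly6D-Gfra2- replicate 5 ended them for all but Itgam. Without Ly6D+Gfra2+ replicate 5 the calls of Pik3r5, Sipa1, Spns2 and St3gal6 ended, without Ly6D-Gfra2- replicate 6 those of Pik3r5 and Spns2 (while St3gal6 moved to 3.48), and without Ly6D-Gfra2- replicate 1 those of Spns2 and St3gal6. The call of Spns2 also ended without Ly6D+Gfra2+ replicate 4, Ly6D-Gfra2- replicate 2 or Ly6D+Gfra2- replicate 2, 5 or 6. With 1 library left out, the highest adjusted p was 0.0508 for Itgam, 0.119 for Pik3r5, 0.0764 for Sipa1, 0.125 for Spns2 and 0.0997 for St3gal6.

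None of the 9 other chemokine receptors tested, of 19 on the list, passed in any comparison, and none of the 4 ligands tested of 11 did. In the comparison of Ly6D+Gfra2+ with Ly6D-Gfra2- cells the median was -0.28 for the receptors and 2.07 for the ligands. In the comparisons of Ly6D+Gfra2+ with Ly6D+Gfra2- cells and of Ly6D+Gfra2- with Ly6D-Gfra2- cells no gene of these 7 lists was called by edgeR. The smallest adjusted p of the first of these were those of Itgam (-2.30, SE 0.53, adjusted p = 0.0711) and Sipa1 (1.40, adjusted p = 0.0716).

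**Figure D4:**
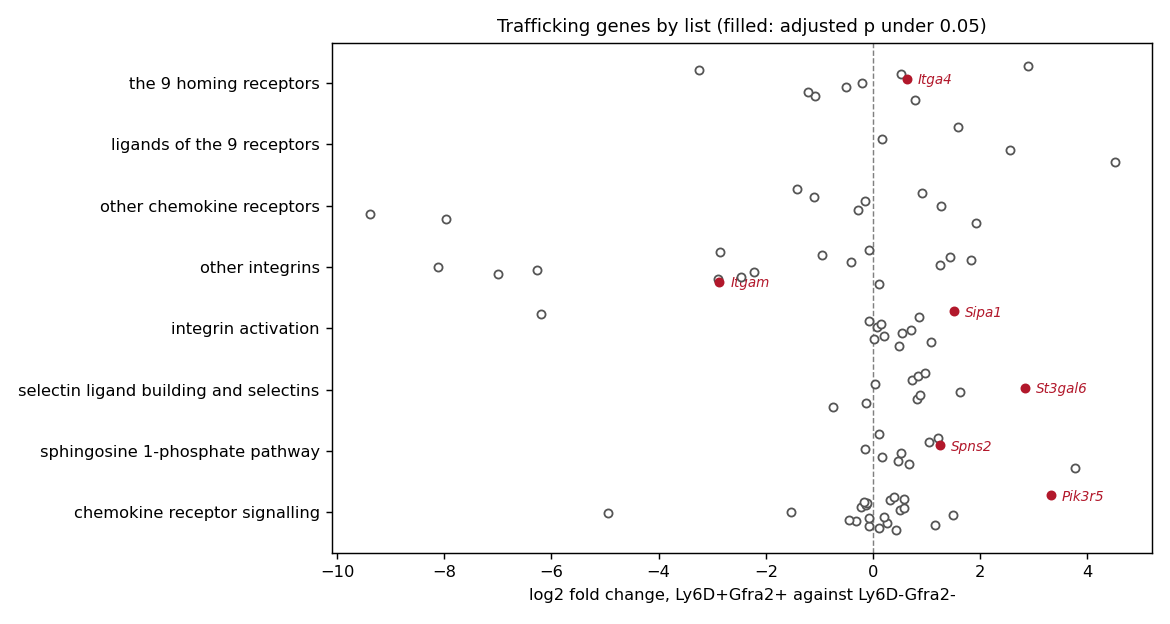
Log2 fold change of each tested gene in Ly6D+Gfra2+ against Ly6D-Gfra2- cells, by list, where a point is 1 gene, a filled red point is a gene with an adjusted p under 0.05 and the vertical offset of points within a list has no meaning. Called genes are Itga4 among the 9 receptors, St3gal6, Sipa1, Spns2 and Pik3r5 to the right of 0 and Itgam to the left, and the points farthest to the left belong to genes at 0 in all Ly6D+Gfra2+ libraries, such as Cxcr2 and Cxcr3, whose fitted values depend on the prior count.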

How the data were processed

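Sorted common lymphoid progenitors of wild-type C57BL/6 mouse marrow were sequenced as total RNA with Qiagen extraction and NuGEN library kits, per the labels. The deposited values are raw counts per RefSeq identifier, per the file headers, with 1 file per library. The submitters' processing notes name FastQC, HISAT, TopHat, HOMER, DESeq and mm10, and the role of each, the strand setting and the treatment of reads with several matches are not given in the sources used here. Of 24072 identifiers, 23815 were named from the RefSeq gene table of GRCm38.p6 and 144 from GENCODE M21. Levels are CPM computed here from TMM-scaled library sizes. Transcript lengths are those of the GENCODE M21 transcript matched to each RefSeq identifier, and 6 of the 9 receptors matched a RefSeq promoter window. A single edgeR 4.0.16 quasi-likelihood fit (R 4.3.3, limma 3.58.1) of all 13 libraries had terms for group and name prefix, with filterByExpr at a minimum count of 10 and a total of 15. Benjamini-Hochberg adjusted two-sided p under 0.05 over the 12722 genes tested was the threshold. SE is an approximation, the size of the log2 fold change divided by the square root of the quasi-likelihood F statistic. The script was tested on simulated counts. Alternatives were another scaling, other filters, no prefix term, and the replicate number as a block in place of the prefix. Further ones were the 2 groups alone, each prefix alone, each library left out, DESeq2 1.42.0 and limma voom with quality weights.

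The receptors, the lists and the naming rule (all 9 receptors, up to 3 genes of each list and comparison with the smallest p, and the 2 nearest genes) were chosen with earlier results of these data known. Itgae, Trbc2 and Ighd were not analysed here, and 1 listed gene is not reported here. No columns of per-sample values were left unused.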

Additional observations from a re-analysis of the deposited data

How the results depend on the processing

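Of 663 alternative values of the receptors' fold changes, 616 kept direction and side of the threshold, 14 lost the call, 6 gained one and 27 turned direction. The causes were not tested except where fewer libraries entered. For Ly6D+Gfra2+ against Ly6D-Gfra2- cells, 177 genes were called: 92 with the replicate block, 111 scaled by library size alone, 318 with no filter, 72 with the 2 groups alone, 62 within prefix T, 946 with DESeq2 and 109 with voom, and 49 to 372 with 1 library left out. The count moved over 1.5 times without Ly6D+Gfra2+ replicate 5 or 6, Ly6D-Gfra2- replicate 1, 4, 5 or 6, or Ly6D+Gfra2- replicate 6. Of the receptors 1 was called: 0 without the prefix term, with the block, by library size alone, with 2 groups alone, within prefix T and without the 3 libraries that detect few genes or go against their label (Ly6D+Gfra2+ replicate 5, Ly6D+Gfra2- replicate 1 and Ly6D-Gfra2- replicate 3, an alternative chosen after seeing the data), 3 with DESeq2, and 0 to 2 with 1 library left out. For Ly6D+Gfra2+ against Ly6D+Gfra2- cells, 52 genes were called: 103 without the prefix term, 25 with the block, 164 with no filter, 8 with 2 groups alone, 9 within prefix T, 714 with DESeq2, 25 with voom, and 12 to 184 with 1 library left out, over 1.5 times away for all but Ly6D+Gfra2- replicate 1 and Ly6D-Gfra2- replicate 3. Receptors called were 0, but 1 with no filter and 1 with DESeq2, and 0 to 1 with 1 library left out. For Ly6D+Gfra2- against Ly6D-Gfra2- cells, 0 genes were called: 8 with the block, 9 with no filter, 1 within prefix T, 52 with DESeq2, 1 with voom, 23 without the 3 libraries, and 0 to 16 with 1 left out (16 without Ly6D-Gfra2- replicate 3). No alternative called a receptor there.

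Directions turned as follows. In Ly6D+Gfra2- against Ly6D-Gfra2- cells Ccr9 turned to 0.091 with the replicate block and 0.19 within prefix P without replicate 3, Selplg to -0.049 within prefix P, Itgb1 to -0.13 within prefix P without replicate 3 and -0.14 within prefix P, and Itgb7 to 0.47 with the block, 0.37 within prefix T, 0.23 with voom, 0.11 within prefix P without replicate 3 and 0.53 without the 3 libraries. The within-prefix-P fits were chosen after seeing the data. With 1 library left out, Ccr7 ran from -0.12 to 0.44 and Itgb7 from -0.30 to 0.34. In Ly6D+Gfra2+ against Ly6D+Gfra2- cells Ccr2 turned to -0.64 with the block and -0.27 with voom, and Itgb1 to -0.60 with voom and -1.10 without the 3 libraries; with 1 left out they ran from -2.23 to 1.49 and from -1.04 to 0.72. In Ly6D+Gfra2+ against Ly6D-Gfra2- cells Ccr2 turned to 0.26 and Itgb1 to -0.80 without the 3 libraries, and Itgb1 to -0.38 with voom; with 1 left out Ccr2 ran from -3.49 to 0.074, Itgb1 from -0.85 to 0.90 and Selplg from -0.67 to 0.085. DESeq2 gave no value for Itgb1.

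Libraries of different groups with the same replicate number correlated at -0.0276 to 0.137 in their deviations from the group means. Those with different numbers correlated at -0.104 to 0.089. The highest value was that of replicate 6 of Ly6D-Gfra2- with replicate 6 of Ly6D+Gfra2-. Endings of the prefix T names match the replicate numbers, and the labels do not explain them. Whether the numbers pair libraries is thus not known, and the main fit did not pair them. The replicate block gave Itga4 0.63 (adjusted p = 0.0569) against Ly6D-Gfra2- cells. Scaling by library size alone moved the median of all genes to -0.09 for Ly6D+Gfra2- against Ly6D-Gfra2-, -0.15 for Ly6D+Gfra2+ against Ly6D+Gfra2- and -0.25 for Ly6D+Gfra2+ against Ly6D-Gfra2- cells. Ccr2, and S1pr1 outside Ly6D+Gfra2+ cells, rest on few counts.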

Other observations

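Some genes of the lists were carried by single libraries and did not pass the edgeR test in any comparison. Cxcl12, the ligand of Cxcr4, was at 0, 0 and 37.6 CPM in Ly6D+Gfra2+ replicates 4, 5 and 6. It was at 0.559 CPM or less in Ly6D+Gfra2- and 1.19 CPM or less in Ly6D-Gfra2- libraries. Of 8 stroma and endothelium markers, Cdh5, Col1a2 and Kdr were at 0 in Ly6D+Gfra2+ replicates 4 and 5 but not in 6. Lepr and Col1a1 were at 0 in replicates 4, 5 and 6. The sum of the 8 was 334, 202 and 255 CPM in replicates 4, 5 and 6. The part of such cells in the Cxcl12 value was not tested. Ccl25, the ligand of Ccr9, was at 0, 43.8 and 0.325 CPM in Ly6D+Gfra2+ libraries, at 0 to 6.04 CPM in Ly6D+Gfra2- and at 0.578 to 8.21 CPM in Ly6D-Gfra2- libraries. Cxcr5, the receptor for Cxcl13, had 113 CPM in Ly6D+Gfra2- replicate 1, against 0.304 to 17.7 CPM in the other 3 libraries of that group, 0.229 to 3.03 CPM in Ly6D+Gfra2+ and 1.19 to 16.03 CPM in Ly6D-Gfra2- libraries. S1pr3, another receptor for sphingosine 1-phosphate, was also highest in Ly6D+Gfra2- replicate 1, at 286 CPM, against 18.5 to 82.4 CPM in the rest of that group.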
